A study of Mus musculus with 39 samples.

Results

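The 44 genes described here code for the proteins that copy DNA and prepare cells for S phase, the part of the cell cycle in which the genome is duplicated. They were chosen by name: a probe set was used if it was annotated with exactly 1 gene symbol, that of a listed gene, and of several such probe sets the one with the highest mean was kept. All 44 were measured, among 19938 genes with a single-symbol probe set. RNA of isolated mouse pancreatic islets, the hormone-secreting cell clusters of the pancreas, was hybridized to 39 arrays (Affymetrix Mouse Gene 1.0 ST) in 10 groups. C57bl6/J wild-type mice were non-pregnant females (4 arrays), at pregnancy day 3.5 (3 arrays), at days 6.5, 9.5, 12.5, 15.5 and 18.5 (4 arrays each), or 10 days post partum (4 arrays). Non-pregnant Pdx1-creLate mice (4 arrays) and their wild-type control littermates (4 arrays) came from a backcross at generation N8. Pdx1-creLate is a Cre driver that acts in beta cells, and its transgene is known to include a minigene for human growth hormone. The labels give no age, and no sex for the backcross mice. Xist, the RNA of the inactive X chromosome in females, lay at log2 levels of 3.8 to 5.0 on those 8 arrays and of 9.7 to 10.5 on the other 31, so every comparison of the backcross with pregnancy also sets mice of low Xist against mice of high Xist.

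DNA replication starts when the origin recognition complex, with Cdc6 and Cdt1, loads the ring-shaped Mcm2-7 helicase onto origins in G1. In S phase, Cdc45 and the GINS complex turn that ring into an active helicase, primase and polymerase alpha lay down primers, and the sliding clamp Pcna holds the replicative polymerases on the template. Many of these genes are textbook targets of E2F transcription factors, which the retinoblastoma family of pocket proteins holds in check. In islets of adult rodents few cells divide, and pregnancy is a well-known physiological state in which beta cells replicate. All values below are log2 levels, so a difference of 1 is a doubling, and they carry 1 decimal. Levels of different genes come from different probes and are not compared with each other. A gene was called when limma's two-sided moderated test gave a Benjamini-Hochberg adjusted p under 0.05 over all 19938 genes.

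The start-site regions of 5 of these genes are shown as examples. Mcm5, Mcm6 and Rfc3 rose at day 9.5 and hold an E2F word before their start. Gins3 holds a word and was not called on that day, and Pcna rose and holds none. No gene that lacks a word and was not called is among the 5. An E2F word was any of TTTCCCGC, TTTCGCGC, TTTGCCGC and TTTGGCGC on either strand, and these words can overlap. The sequences are from RefSeq, build GRCm38.p6, and end at or before the base next to the annotated gene. Capitals mark the E2F words. Mcm5 (chr8:75109309-75109467, plus strand) has a pair of overlapping words, and Mcm6 (chr1:128359706-128359905, minus strand) has 3. Rfc3 (chr5:151651209-151651408, minus strand) and Gins3 (chr8:95633359-95633558, plus strand) have 1 each in the stretch shown, and Pcna (chr2:132253181-132253380, minus strand) has 0.
Mcm5: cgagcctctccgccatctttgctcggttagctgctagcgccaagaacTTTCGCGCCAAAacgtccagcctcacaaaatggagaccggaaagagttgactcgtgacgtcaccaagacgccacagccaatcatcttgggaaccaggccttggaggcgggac
Mcm6: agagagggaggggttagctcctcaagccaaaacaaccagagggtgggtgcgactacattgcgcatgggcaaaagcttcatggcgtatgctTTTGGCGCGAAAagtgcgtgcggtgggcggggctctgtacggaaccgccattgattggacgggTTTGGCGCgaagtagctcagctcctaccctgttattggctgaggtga
Rfc3: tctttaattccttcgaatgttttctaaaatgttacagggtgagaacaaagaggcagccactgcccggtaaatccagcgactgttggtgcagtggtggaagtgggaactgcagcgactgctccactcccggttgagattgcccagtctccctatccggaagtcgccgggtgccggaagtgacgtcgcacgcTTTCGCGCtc
Gins3: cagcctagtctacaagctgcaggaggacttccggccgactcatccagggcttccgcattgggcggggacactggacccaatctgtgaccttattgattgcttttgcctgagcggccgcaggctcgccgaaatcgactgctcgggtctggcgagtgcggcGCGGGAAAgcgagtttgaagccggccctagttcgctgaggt
Pcna: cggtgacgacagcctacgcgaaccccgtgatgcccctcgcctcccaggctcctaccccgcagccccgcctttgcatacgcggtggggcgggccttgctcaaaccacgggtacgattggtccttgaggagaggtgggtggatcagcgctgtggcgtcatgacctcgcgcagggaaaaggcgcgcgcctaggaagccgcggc

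Of the 44 genes, 35 had an entry in the RefSeq promoter table, which covers 250 bases before to 50 bases after each start. An E2F word stood in 14 of these 35 (40.0%), against 2.6% of the 27025 genes in the table. With only TTTCCCGC and TTTGGCGC, the counts were 10 of 35 (28.6%) and 1.8%. The NF-Y box CCAAT, on either strand, stood in 20 of 35 (57.1%) against 41.1% of all genes. TTTGAA, the CHR element found in many genes of mitosis, stood in 4 of 35 (11.4%) against 20.2%. Of the 14 genes with an E2F word, 12 were called higher at day 9.5, with Orc1 and Gins3 as the exceptions, and their median difference was 0.52. Of the 21 without a word, 17 were called higher, with Mcm10, Rfc5, Tk1 and Ccne1 as the exceptions, and the median was 0.50. The difference between the 2 sets was not tested, and no match says only that these letters are not in the window.

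The replication genes were highest in islets of day 9.5. At that day 34 of 44 rose against non-pregnant islets and 0 fell, where 11.6% of all genes rose and 7.74% fell. Their median difference was 0.49, against -0.02 over all genes, and it ran from -0.22 for Tk1 to 1.07 for Mcm3. The mean over the 44 genes was 5.99 to 6.05 on the non-pregnant arrays and 6.43 to 6.56 on the day 9.5 arrays. In 29 of the 44, every day 9.5 array lay above every non-pregnant array, as in 8.97% of all genes. Without any 1 of the 8 arrays, 31 to 34 members were called. In bulk islets, more cells in S phase and more RNA of these genes per cell cannot be told apart.

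**Figure D1:**
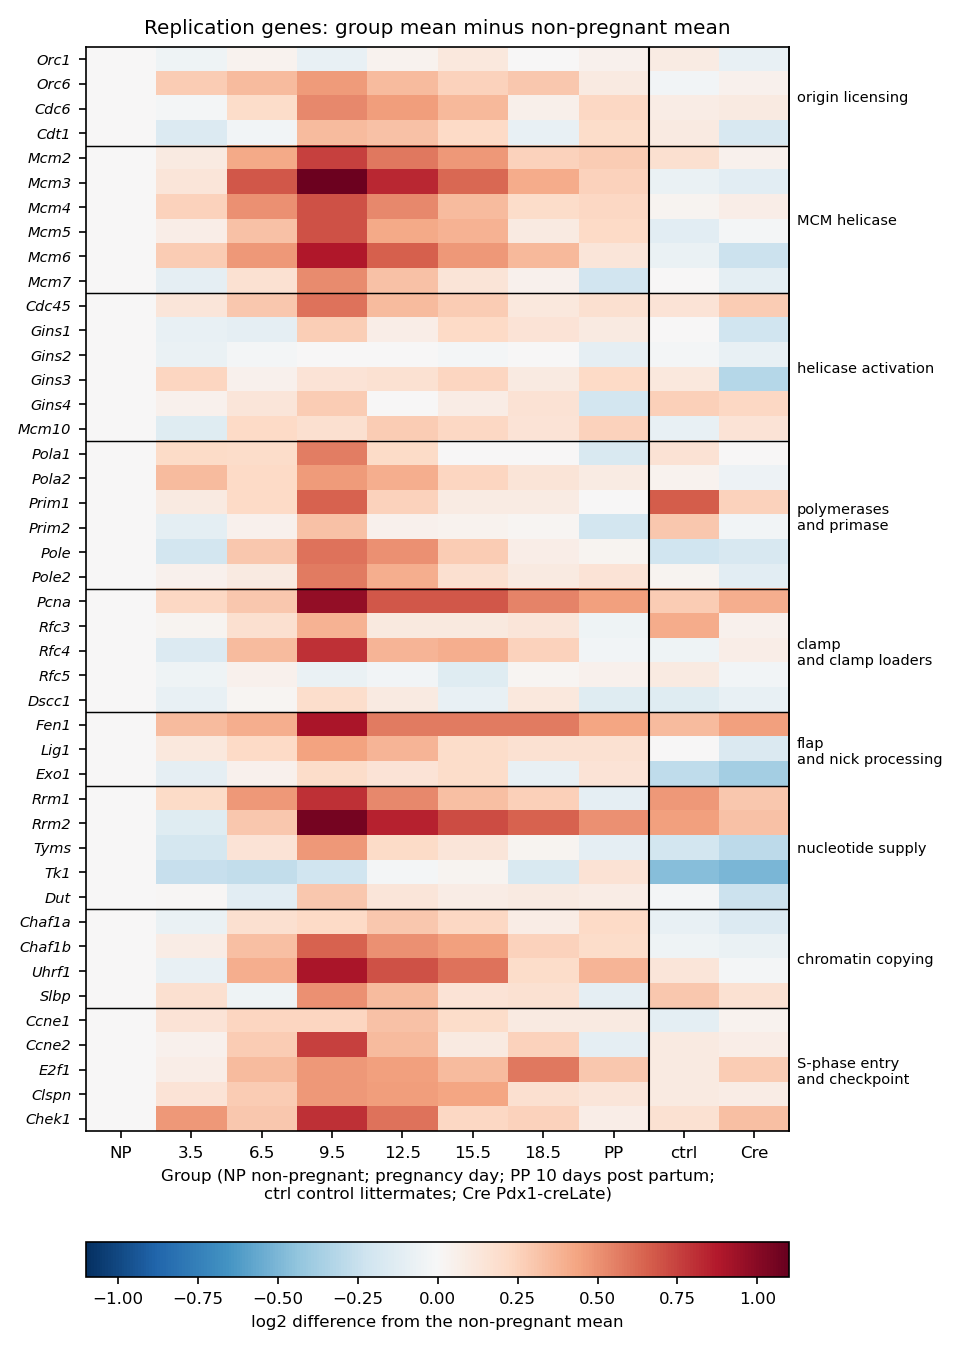
Group mean minus the non-pregnant mean (colour, log2 scale from blue for lower to red for higher) for each of the 44 genes (rows, by role) in the 10 groups (columns). The day 9.5 column is the reddest, up to 1.07 for Mcm3, and the 2 columns of the backcross hold no such block. The mean over the 44 genes was 6.09 in control littermates and 6.51 at day 9.5. Single genes of the control littermates were at the day 9.5 level, such as Prim1 (6.6 and 6.58) and Rfc3 (6.48 and 6.45).

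Other measures that moved with day 9.5 are given here, and their part in the result was not tested beyond the values stated. The islet hormones Ins2, Gcg and Sst were at 11.9 or more on every array of this islet series. Of 8 markers of acinar cells, the enzyme-secreting cells around the islets, 0 were called at day 9.5. Their mean level was 10.26 in non-pregnant islets (arrays 8.71 to 11.03) and 9.21 at day 9.5 (6.96 to 10.86). With each array's acinar mean as a covariate, again 34 members were called. Of 7 macrophage markers 2 rose, C1qa by 1.07 and C1qc by 0.35, and the list mean was 6.71 and 6.95. Of 9 lymphocyte markers 2 were lower and 0 higher, with list means of 5.02 and 4.80. Of 8 endothelial markers 0 were called (means 7.94 and 7.93), and 1 of 8 stellate markers, Pdgfra, was lower. Of 8 beta-cell markers 3 rose, namely Mafa, G6pc2 and Pdx1. The SD over all genes within an array was 1.764 to 1.843 on non-pregnant and 1.869 to 1.952 on day 9.5 arrays, and with it as a covariate 23 members were called.

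Among the genes of origin licensing, 3 of 4 rose at day 9.5. Cdc6, which helps load the helicase, was at 5.4, 5.5, 5.7 and 5.5 on the non-pregnant arrays and at 6.2, 6.1, 6.1 and 5.8 on the day 9.5 arrays. The groups did not overlap, and Cdc6 rose by 0.52 ± 0.12 (SE; adjusted p = 0.00286). Orc6, a subunit of the origin recognition complex, was at 7.2 to 7.3 in non-pregnant islets and at 7.7 to 7.8 at day 9.5. It rose by 0.47 ± 0.08 (adjusted p = 6.01e-05). Cdt1, the other helicase loader, rose by 0.35. Orc1, the largest subunit of the complex, was at 4.0 to 4.3 and 3.9 to 4.3, a low level on its probe set in every group, and had a difference of -0.08 ± 0.10 (adjusted p = 0.613).

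All 6 subunits of the Mcm2-7 helicase rose at day 9.5, with a median of 0.73. Mcm3 was at 5.3, 5.9, 5.5 and 5.6 on the non-pregnant arrays and at 6.5, 6.6, 6.7 and 6.8 at day 9.5. Every day 9.5 array stood well above the highest non-pregnant one, and Mcm3 rose by 1.07 ± 0.13, or 2.11-fold (adjusted p = 5.91e-07). Mcm6 was at 6.8, 7.0, 6.7 and 6.4 in non-pregnant islets and at 7.4, 7.8, 7.5 and 7.7 at day 9.5. It rose by 0.87 ± 0.12 (adjusted p = 3.12e-06), again without overlap. Mcm2, Mcm4, Mcm5 and Mcm7 rose by 0.75, 0.70, 0.70 and 0.53.

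**Figure D2:**
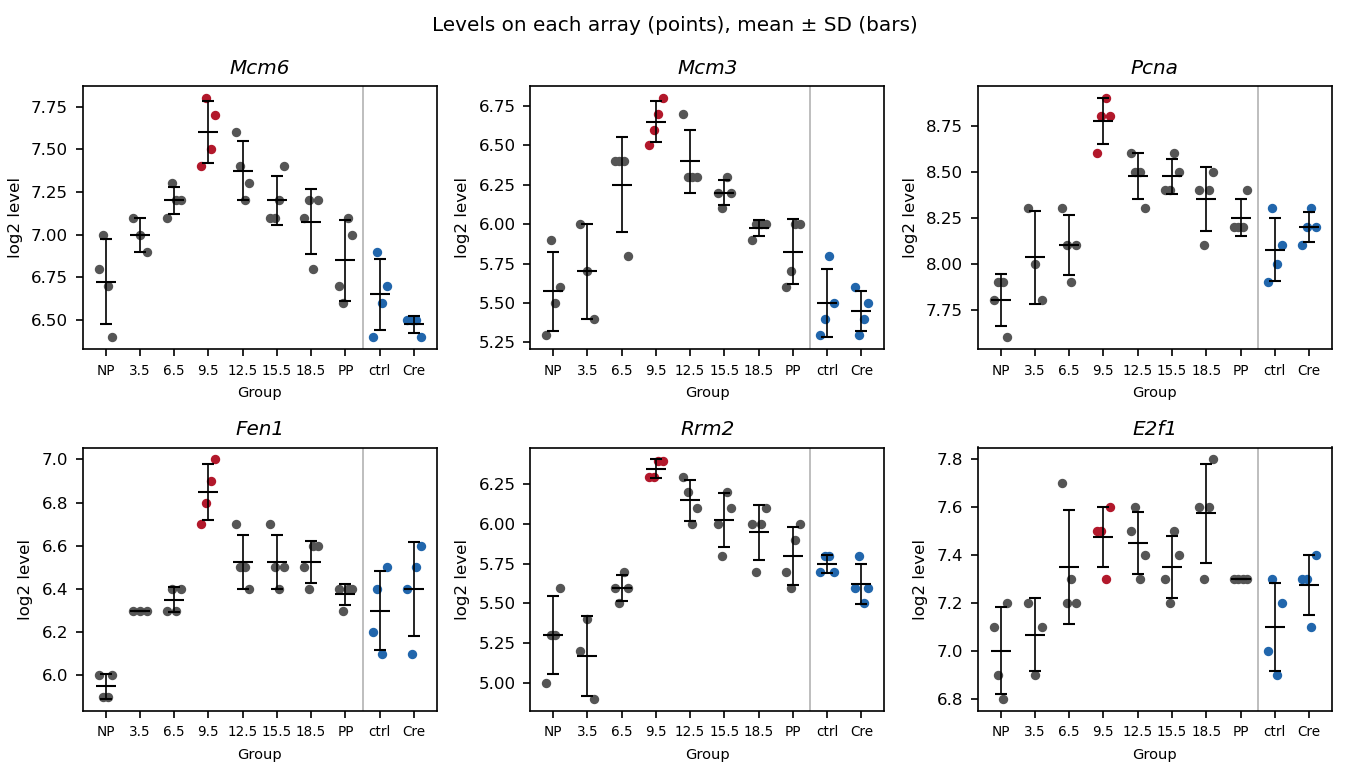
Log2 level of Mcm6, Mcm3, Pcna, Fen1, Rrm2 and E2f1 on each array (points), with mean and SD (bars), by group (NP non-pregnant, pregnancy days, PP 10 days post partum, ctrl control littermates, Cre Pdx1-creLate). In 5 panels the group mean is highest at day 9.5 (Rrm2 arrays at 6.3 to 6.4 against 5.0 to 5.6 in non-pregnant islets), while E2f1 has its highest array, 7.8, at day 18.5.

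Of 6 factors that turn the helicase on, 2 rose at day 9.5, and the median was 0.22. Cdc45 was at 6.1, 6.1, 6.2 and 6.0 in non-pregnant islets and at 6.5, 6.8, 6.7 and 6.8 at day 9.5. It rose by 0.60 ± 0.08 (adjusted p = 9.83e-07), and its groups did not overlap. Gins4 was at 6.6 to 7.0 and at 6.9 to 7.2, so its groups overlapped, and it rose by 0.28 ± 0.09 (adjusted p = 0.0374). That call was lost under 8 of 19 other settings, with an adjusted p of up to 0.793. The other GINS subunits were not called: Gins1 had a difference of 0.27 (adjusted p = 0.0527), Gins2 of 0.00 and Gins3 of 0.15. Gins2 was at 6.8 to 7.0 in non-pregnant islets and at 6.9 on all 4 arrays of day 9.5. Mcm10, which binds the active helicase, had a difference of 0.17 (adjusted p = 0.158).

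All 6 members that code for subunits of polymerase alpha, primase and polymerase epsilon rose at day 9.5, with a median of 0.56. Pole3 and Pole4, also of polymerase epsilon, are not among the 44 genes. Prim1, the catalytic subunit of primase, was at 5.9, 6.1, 6.1 and 5.6 in non-pregnant islets and at 6.4, 6.7, 6.6 and 6.6 at day 9.5, a rise of 0.65 ± 0.10 (adjusted p = 1.23e-05). Pole, the catalytic subunit of the leading-strand polymerase, was at 4.9, 4.9, 4.8 and 5.0 and at 5.5, 5.4, 5.6 and 5.5, a rise of 0.60 ± 0.10 (adjusted p = 5.08e-05). Neither gene had overlapping groups. Pole2 rose by 0.57, Pola1 by 0.55, Pola2 by 0.48 and Prim2 by 0.33.

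Of the sliding clamp and its loaders, 3 of 5 rose at day 9.5. Pcna was at 7.8, 7.9, 7.9 and 7.6 in non-pregnant islets and at 8.6, 8.8, 8.9 and 8.8 at day 9.5. It rose by 0.98 ± 0.10, or 1.97-fold (adjusted p = 2.17e-08), with a wide gap between the groups. Rfc4, a subunit of the clamp loader, was at 5.4, 5.4, 5.6 and 5.4 and at 6.0, 6.4, 6.3 and 6.3, a rise of 0.80 ± 0.15 (adjusted p = 0.000242). Rfc3, another loader subunit, rose by 0.37. Rfc5, of the same complex, was at 7.8 to 8.2 and 7.7 to 8.1 and had a difference of -0.08 (adjusted p = 0.688). Dscc1, of an alternative loader, was at 4.1 to 4.5 and 4.2 to 4.9 and had a difference of 0.20 (adjusted p = 0.211).

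Of the enzymes that process flaps and nicks on the lagging strand, 2 of 3 rose. The flap endonuclease Fen1 was at 6.0, 5.9, 5.9 and 6.0 in non-pregnant islets and at 6.7, 6.8, 6.9 and 7.0 at day 9.5. It rose by 0.90 ± 0.07, or 1.87-fold, and had the smallest adjusted p of the 44 genes (1.98e-10). DNA ligase Lig1 was at 6.7, 6.6, 6.8 and 6.6 and at 7.1, 7.1, 7.0 and 7.3, a rise of 0.45 ± 0.10 (adjusted p = 0.00215). With the array SD as a covariate Lig1 was not called (adjusted p = 0.139). Exo1, an exonuclease of mismatch repair, had a difference of 0.20 (adjusted p = 0.178), with arrays at 5.2 to 5.6 and 5.5 to 5.7.

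Of 5 genes of nucleotide supply, 4 rose at day 9.5. Ribonucleotide reductase makes deoxynucleotides, and its subunits are Rrm1 and the S-phase-specific Rrm2. Rrm2 was at 5.0, 5.3, 5.3 and 5.6 in non-pregnant islets and at 6.3, 6.3, 6.4 and 6.4 at day 9.5, a rise of 1.05 ± 0.11 or 2.07-fold (adjusted p = 4.08e-08). Rrm1 was at 7.2, 7.5, 7.5 and 7.1 and at 8.0, 8.2, 8.2 and 8.1, a rise of 0.80 ± 0.10 (adjusted p = 1.43e-06). Tyms, which makes thymidylate, rose by 0.47, and Dut, which keeps uracil out of DNA, rose by 0.30. Thymidine kinase Tk1 was not called, with arrays at 6.9 to 7.3 and 6.7 to 6.9 and a difference of -0.22 (adjusted p = 0.086). A dimmer probe set for Tk1 gave 5.5 to 5.9 and 5.6 to 6.1, so the probe sets of this gene differed in direction. Which of them reads the Tk1 transcript was not tested, and each Tk1 value here rests on the brighter one unless stated.

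All 4 genes of chromatin copying rose at day 9.5. Uhrf1, which guides maintenance DNA methylation, was at 5.3, 5.6, 5.5 and 5.4 in non-pregnant islets and at 6.2, 6.4, 6.6 and 6.2 at day 9.5, a rise of 0.90 ± 0.12 (adjusted p = 3.41e-06). Chaf1b, of the histone chaperone CAF-1, was at 5.7, 6.0, 6.0 and 6.1 and at 6.6, 6.8, 6.7 and 6.3, a rise of 0.65 ± 0.10 (adjusted p = 4.04e-05). Slbp, which binds the stem-loop of histone mRNAs, rose by 0.50, and the CAF-1 subunit Chaf1a rose by 0.22 (adjusted p = 0.0424).

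Of 5 genes of S-phase entry and checkpoint, 4 rose. The checkpoint kinase Chek1 was at 5.7, 5.3, 5.3 and 5.5 in non-pregnant islets and at 6.2, 6.4, 6.1 and 6.3 at day 9.5, a rise of 0.80 ± 0.13 (adjusted p = 3.1e-05). Cyclin E2, Ccne2, was at 5.1, 5.2, 5.2 and 5.1 and at 5.6, 6.1, 6.1 and 5.8, a rise of 0.75 ± 0.14 (adjusted p = 0.000402), which was not called with the array SD as a covariate (adjusted p = 0.126). Clspn, the adaptor of Chek1, rose by 0.48, and the transcription factor E2f1 rose by 0.47. Cyclin E1, Ccne1, was at 6.1 to 6.4 and 6.4 to 6.6, with a difference of 0.25 (adjusted p = 0.0537).

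At day 3.5 limma called 0 replication genes, where 0.0201% of all genes rose and 0.0251% fell. At an unadjusted p under 0.05 there were 9 (20.5%), of which 8 were higher, beside 20.3% of all genes, so the share of members was near that of all genes. The smallest p was that of Fen1, at 6.3 on all 3 arrays against 5.9 to 6.0 (difference 0.35 ± 0.08, adjusted p = 0.066). Without non-pregnant replicate 1, 3 members were called. Acinar markers were lower at this day on average (7.67, arrays 5.39 to 9.36, against 10.26), with 0 of 8 called.

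At day 6.5, 6 of 44 rose and 0 fell, where 0.502% of all genes rose and 0.120% fell. They were Orc6, Mcm2, Mcm3, Mcm4, Fen1 and Rrm1, of which 3 are helicase subunits. Mcm3 was at 6.4, 6.4, 6.4 and 5.8, against 5.3 to 5.9 in non-pregnant islets, so 3 of 4 arrays lay above and 1 within the non-pregnant range. It rose by 0.67 ± 0.13 (adjusted p = 0.00751). Mcm4 was at 6.7, 6.5, 6.9 and 6.5 against 6.0 to 6.3 and rose by 0.50 ± 0.10 (adjusted p = 0.00563). Fen1 rose by 0.40, Mcm2 by 0.43, Rrm1 by 0.47 and Orc6 by 0.35. The count was 2 without day 6.5 replicate 3, 3 without non-pregnant replicate 4, and 1 (Mcm2) when the spread was taken from these 8 arrays alone.

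The mean over the 44 genes was 6.02 in non-pregnant islets, 6.23 at day 6.5 and 6.51 at day 9.5. The larger part of this mean increase thus fell after day 6.5. In some genes the earlier part was larger, as in Mcm3 with means of 5.57, 6.25 and 6.65. The step from day 6.5 to day 9.5 does not use the non-pregnant arrays. Of the 44 genes 26 rose and 0 fell, where 10.5% of all genes rose and 6.93% fell, and the median step was 0.32 against -0.03 over all genes. Rrm2 went from 5.5 to 5.7 at day 6.5 to 6.3 to 6.4 at day 9.5, a rise of 0.75 ± 0.11 (adjusted p = 3.56e-05) with no overlap. Pcna rose by 0.68 ± 0.10 (adjusted p = 3.54e-05), from arrays at 8.3, 8.1, 7.9 and 8.1. Slbp rose by 0.55, Chek1 by 0.50 and Fen1 by 0.50, and all 6 polymerase and primase genes among the members rose. Acinar markers fell in this step (6 of 8 called, means 11.14 and 9.21). The stellate markers Col1a1 (-0.40), Pdgfrb (-0.28) and Pdgfra (-0.45), the lymphocyte marker Cd8a (-0.32) and the beta-cell marker Slc2a2 (-0.25) also fell. The macrophage gene C1qa (0.75) and the delta-cell gene Hhex (0.48) rose, and the part of these other markers in the result was not tested. The count of members was 17 with the acinar mean as a covariate, 10 with the array SD as a covariate, and 17 without day 9.5 replicate 3. The earlier step, from day 3.5 to 6.5, had 2 calls, Mcm3 (0.55) and Pole (0.50), both higher, where 0.808% of all genes rose and 0.446% fell. It fell to 0 calls under 4 other settings and without day 3.5 replicate 3 or day 6.5 replicate 1, and to 1 without day 3.5 replicate 2. All 8 acinar markers rose in that step (means 7.67 and 11.14), and the count with their mean as a covariate was 0.

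**Figure D3:**
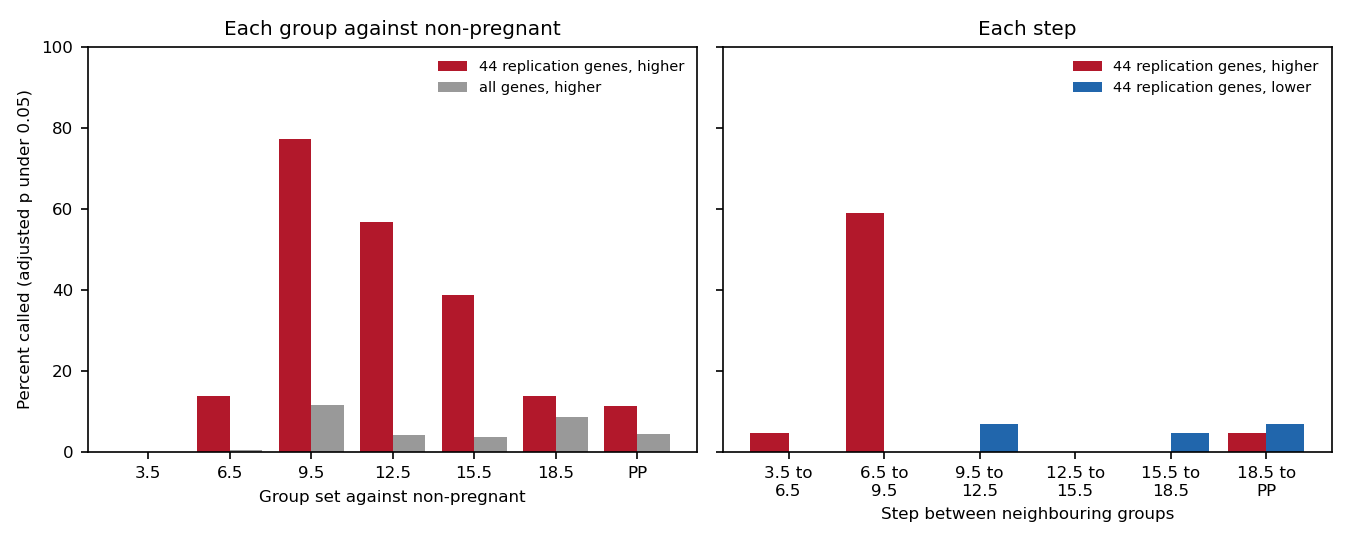
Percent of the 44 replication genes called higher (red) or lower (blue) in each comparison, with the percent of all genes called higher in grey in the left panel. The left panel sets each group against the same 4 non-pregnant arrays and peaks at day 9.5 (34 of 44), and the right panel gives the steps between neighbouring groups, with 26 of 44 higher from day 6.5 to 9.5.

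After day 9.5 the number of genes called against non-pregnant islets was lower at each later day. At day 12.5, 25 rose, where 4.08% of all genes rose and 1.19% fell, and the median was 0.35. At day 15.5, 17 rose, where 3.70% rose and 4.53% fell, with a median of 0.22. At day 18.5, 6 rose, where 8.59% rose and 2.50% fell, with a median of 0.14. At an unadjusted p under 0.05, the share of members at day 18.5 was near that of all genes. At days 12.5 and 15.5 that share was well above the one of all genes. No member was called lower at any of these days. All days share the 4 non-pregnant arrays. The count at day 15.5 was 10 without day 15.5 replicate 4, 11 without non-pregnant replicate 4 and 11 with the spread of these 8 arrays alone.

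At day 12.5 Rrm2 was at 6.3, 6.2, 6.0 and 6.1, all above the non-pregnant arrays, and was higher by 0.85 ± 0.11 (adjusted p = 3.28e-06). Mcm3 was higher by 0.82, Uhrf1 by 0.70, Pcna by 0.67 and Mcm6 by 0.65. All 6 Mcm2-7 genes were called, and Cyclin E1 was called on this day only (0.33, adjusted p = 0.0304). At day 15.5 Rrm2 was at 6.0, 5.8, 6.2 and 6.1 and higher by 0.72 ± 0.11 (adjusted p = 4.56e-05). Pcna was higher by 0.67, Mcm3 by 0.62, Uhrf1 by 0.60 and Fen1 by 0.58. Gins3 was called on this day only, with arrays at 6.0, 6.2, 6.0 and 6.1 against 5.9, 5.9, 5.9 and 5.6 (0.25, adjusted p = 0.0401).

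The 6 genes still called at day 18.5 were Orc6, Mcm3, Pcna, Fen1, Rrm2 and E2f1, and these were called at each day from 9.5 on. Rrm2 was at 6.0, 5.7, 6.0 and 6.1 and higher by 0.65 ± 0.11 (adjusted p = 0.000141). Fen1 was at 6.5, 6.4, 6.6 and 6.6 and higher by 0.58 ± 0.07 (adjusted p = 1.16e-06). E2f1 had its highest group mean here, with arrays at 7.6, 7.3, 7.6 and 7.8 against 7.1, 6.9, 6.8 and 7.2, and was higher by 0.57 ± 0.11 (adjusted p = 0.000368). The call for Mcm3 at this day (0.40, adjusted p = 0.0467) was lost under 10 of 19 other settings. A group of 10 genes was called at day 9.5 and on no other day, among them Pola1, Prim1, Prim2, Rfc3, Rfc4 and Ccne2.

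The steps between the later days held few calls. From day 9.5 to 12.5 the median was -0.17, 7 of 44 differences were positive, and 3 genes fell and 0 rose, where 1.51% of all genes fell and 1.72% rose. Prim1 went from 6.4 to 6.7 down to 6.0 to 6.3 and fell by 0.40 (adjusted p = 0.0247), Pola1 fell by 0.35 and Fen1 by 0.32. The count ranged from 0 without day 9.5 replicate 3, day 9.5 replicate 4 or day 12.5 replicate 4 to 10 without day 9.5 replicate 1, and was 1 without day 9.5 replicate 2 or day 12.5 replicates 1 or 3. From day 12.5 to 15.5 limma called 0 members and 0 of all genes (0%), with 3 members (Mcm7, Pole and Chek1) and 2347 genes in all at an unadjusted p under 0.05. From day 15.5 to 18.5 Uhrf1 fell by 0.40 and Cdt1 by 0.30 and 0 rose, where 4.21% of all genes fell and 6.08% rose. Leaving out any of 6 of the 8 arrays left 0 calls, namely day 15.5 replicates 2, 3 or 4 and day 18.5 replicates 1, 3 or 4, and leaving out day 18.5 replicate 2 left 1. In that step 4 of 8 endothelial markers rose and 1 of 9 lymphocyte markers fell, and their part in it was not tested.

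The day of the highest mean was read for each gene without a test, as the largest of 6 day means. It was day 9.5 in 34 of 44 genes (77.3%), against 15.8% of all genes. For 26 of these 34 the next highest day was 12.5, and for 3 it was day 6.5, with ties given to the earlier day. Such ties were those of Orc6 (days 6.5 and 12.5) and Prim2 (days 6.5, 12.5 and 15.5), both counted at day 6.5. Pcna (days 12.5 and 15.5) and Fen1 (days 12.5, 15.5 and 18.5) were tied too and counted at day 12.5. The gap between the highest and the next day was 0.03 (Cdt1) to 0.40, with a median of 0.20. Only in Pola1 and Prim1 did every day 9.5 array lie above every array of the next day. For the other genes the arrays of the 2 days overlapped or met at a shared value, as those of Pcna met at 8.6. Day 12.5 was highest for Mcm10, Chaf1a and Ccne1, day 15.5 for Orc1, Gins3 and Tk1, day 6.5 for Rfc5 and day 18.5 for E2f1. Gins2 and Exo1 were tied between days, and no gene was highest at day 3.5. A moderated F-test of differences among the 6 pregnancy days, without the non-pregnant arrays, called 33 of 44, where 38.6% of all genes were called. Rrm2 had the smallest adjusted p (1.33e-07), with day means from 5.17 at day 3.5 to 6.35 at day 9.5. Orc1, Gins2 and Rfc5 were not called (adjusted p = 0.503, 0.984 and 0.777).

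**Figure D4:**
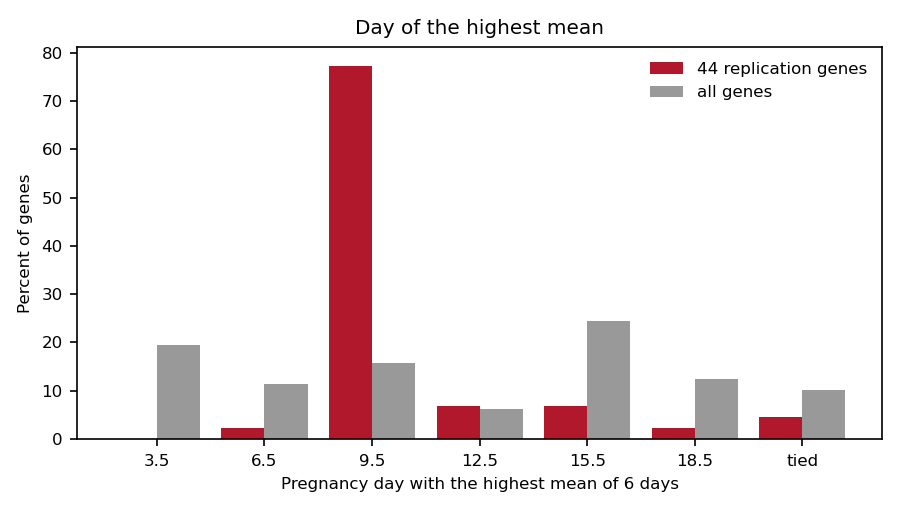
Percent of genes (vertical axis) whose mean was highest on each pregnancy day (horizontal axis), for the 44 replication genes (red) and all 19938 genes (grey), with ties set apart. The red bar at day 9.5 stands at 77.3% and the grey one at 15.8%.

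At 10 days post partum 5 genes were higher than in non-pregnant islets and 0 lower, where 4.46% of all genes were higher and 7.78% lower. Rrm2 was at 5.7, 5.6, 5.9 and 6.0 against 5.0, 5.3, 5.3 and 5.6, so the groups met at 5.6, and was higher by 0.50 ± 0.11 (adjusted p = 0.00332). Pcna was at 8.2, 8.2, 8.2 and 8.4, all above the non-pregnant arrays, and was higher by 0.45 ± 0.10 (adjusted p = 0.0033). Fen1 was at 6.4, 6.3, 6.4 and 6.4 and higher by 0.43 ± 0.07 (adjusted p = 0.000207). Uhrf1 (0.38) and Mcm2 (0.28) completed the count, and their calls were lost under 7 and 8 of 19 other settings. The count was 3 without non-pregnant replicate 3. Of the cell type markers, 4 of 8 endothelial (list means 7.94 and 7.65), 3 of 8 stellate (6.77 and 6.38), 2 of 4 alpha-cell and 1 of 2 delta-cell genes were lower, and the macrophage gene C1qa was higher by 0.70. Of acinar, duct, lymphocyte and beta-cell markers 0 were called, and the part of these lists in the result was not tested.

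Across birth, from day 18.5 to 10 days post partum, 2 genes rose and 3 fell, where 11.8% and 18.4% of all genes did. Cdt1 was at 6.0, 5.9, 6.0 and 6.1 at day 18.5 and at 6.3, 6.3, 6.2 and 6.3 after birth, a rise of 0.28 ± 0.09 (adjusted p = 0.018) with no overlap. Tk1 rose by 0.33 (adjusted p = 0.0121) on its brighter probe set. The dimmer one had means of 5.68 and 5.62, and with the mean of both the difference was 0.14 and not called (adjusted p = 0.288). Gins4 fell by 0.35, from 6.9 to 7.1 to 6.4 to 6.9, Rrm1 fell by 0.35 and Mcm7 by 0.25. All 8 endothelial markers were lower in this step (list means 8.07 and 7.65), as were 4 of 8 stellate markers (6.68 and 6.38), 1 of 7 macrophage, 1 of 4 duct and 1 of 2 delta-cell markers. Of 9 lymphocyte markers 4 were higher (4.90 and 5.12), as were both red blood cell markers measured, and the part of these lists in the result was not tested. The count was 9 without day 18.5 replicate 2, 3 without day 18.5 replicate 4, 8 without post partum replicate 3 and 0 with the array SD as a covariate. With quantile normalization 4 members were called, and Tk1 alone was among the 5 named here. The others had adjusted p of 0.0695 (Cdt1), 0.0531 (Gins4), 0.176 (Rrm1) and 0.188 (Mcm7) there.

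In islets of Pdx1-creLate mice 0 of the 44 genes rose and 1 fell against control littermates by limma, where 2.86% of all genes rose and 3.72% fell, and the median was -0.09 against -0.03 over all genes. At an unadjusted p under 0.05 there were 7 (15.9%), all with a negative difference, beside 18.8% of all genes. The mean over the 44 genes was 6.04 to 6.12 on the control and 5.97 to 6.07 on the Pdx1-creLate arrays. Prim1 was at 6.7, 6.4, 6.7 and 6.6 in control littermates and at 6.4, 6.1, 6.0 and 6.2 in Pdx1-creLate, so the groups met at 6.4. It fell by 0.43 (SE 0.11, adjusted p = 0.0277). The control littermates' Prim1 level was above that of non-pregnant C57bl6/J islets (5.6 to 6.1), and the Pdx1-creLate level lay between. The Prim1 call was lost under 8 of 19 other settings, 6 of them the leaving out of Pdx1-creLate replicate 2, 3 or 4 or control replicate 1, 3 or 4, with an adjusted p of up to 0.0973. Gins3 was at 6.0, 5.9, 6.0 and 5.9 in controls and at 5.1, 5.5, 5.7 and 5.8 in Pdx1-creLate, all below the controls, with a difference of -0.42 ± 0.13 that was not called (adjusted p = 0.0708). Mcm3 was at 5.3, 5.4, 5.8 and 5.5 and at 5.6, 5.3, 5.4 and 5.5, a difference of -0.05. Without Pdx1-creLate replicate 4 the count was 2. With the spread taken from all 39 arrays, 6 genes were lower. Of 8 beta-cell markers 3 fell, Ucn3 by 0.93, Slc2a2 by 0.58 and Mafa by 0.38 (list means 11.27 and 10.99), and the alpha-cell gene Ttr, Sst and Ppy fell as well. The duct gene Cftr rose by 3.53 and the macrophage gene Lyz2 by 0.77, 2 of 8 stellate markers fell, and 0 of 8 acinar, 8 endothelial and 9 lymphocyte markers were called. The part of these lists in the result was not tested.

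The difference between the effect of the transgene and that of day 9.5 was tested over all 39 arrays. Day 9.5 was chosen for this test with earlier results of these data known. The median effect was -0.09 for the transgene and 0.49 at day 9.5, so the test largely restates the rise at that day. For 32 of 44 genes the transgene effect was lower and for 0 higher, where 8.49% of all genes were lower and 4.04% higher, with a median of -0.60. The largest were Rrm2 (-1.18 ± 0.15, adjusted p = 6.75e-07), Mcm3 (-1.12 ± 0.19, adjusted p = 4.96e-05), Prim1 (-1.07 ± 0.14, adjusted p = 7.86e-07), Mcm6 (-1.05 ± 0.17, adjusted p = 2.5e-05) and Uhrf1 (-1.05 ± 0.18, adjusted p = 7.67e-05). For Rrm2 the 2 effects were 1.05 at day 9.5 and -0.13 for the transgene. Line, pregnancy and Xist level differ together between these comparisons, and their parts cannot be told apart.

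**Figure D5:**
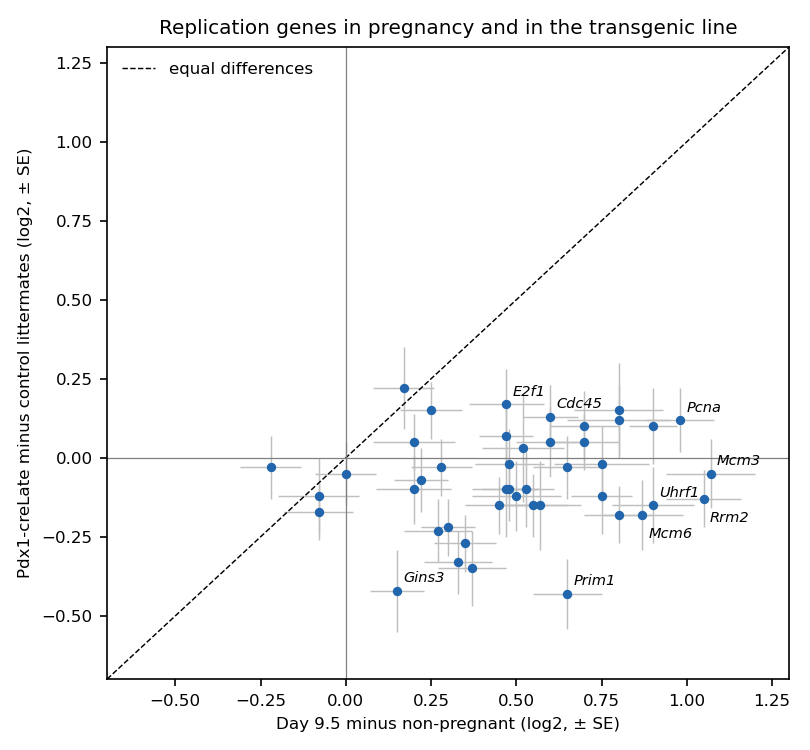
Difference between Pdx1-creLate and control littermates (vertical axis, log2) against the difference between day 9.5 and non-pregnant islets (horizontal axis, log2) for the 44 genes, with standard errors and a dashed line of equal differences. Most points lie to the right of 0 and well below the dashed line, with Rrm2 at 1.05 and -0.13.

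Related genes outside the 44 were counted from further lists. Of 47 other replication genes measured, 26 rose at day 9.5 and 0 fell, with a median of 0.25. They included Hells, a chromatin remodeller (1.15), Asf1b, a histone chaperone (1.00), Dbf4, the activator of the kinase that starts origins (0.83), and Tipin, a fork protection factor (0.78). At day 12.5 there were 9 and at day 15.5 there were 4. Of 33 genes of mitosis and G2, 31 rose at day 9.5, with a median of 0.83 against 0.49 for the 44 replication genes. Top2a, which untangles DNA, rose by 2.12 and the mitotic kinase Pbk by 1.78. In the step from day 9.5 to 12.5, 17 of these 33 fell, beside 3 of the 44. At day 6.5, 16 of 33 rose, beside 6 of the 44. The difference between the lists was not tested. A further list of 26 genes held E2F factors and their partners, pocket proteins, D-type cyclins, cyclin-dependent kinases, kinase inhibitors, Men1 and Myc. Of these, 10 rose at day 9.5 and 1 fell. Among the risers were Myc (1.55), a growth-promoting transcription factor, the kinase inhibitor Cdkn2c (1.20), the pocket protein Rbl1 (0.62) and the repressor E2f8 (0.53). Of 30 histone genes matched by symbol, 13 rose and 1 fell, led by H1f5 (1.40), and near-identical copies make single histone values uncertain. The list was not limited to replication-dependent histones and holds H1f6, H1f8 and H1f10. In Pdx1-creLate, Myc was higher by 1.22 and Ccnd1 and Ccnd2, D-type cyclins, were lower (-0.57 and -0.37), while 0 of 33 genes of mitosis and G2 were called.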

How the data were processed

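Total RNA was labelled with biotin and hybridized per the labels' protocols, and the authors deposited log2 values with 1 decimal, made with RMA in Affymetrix Expression Console per the submitters' processing notes. RMA corrects background, quantile-normalizes and summarises probe sets; its version and the arrays normalized together are not given in the sources used here. Of 35556 probe sets, 21789 had 1 gene symbol in GEO's platform annotation, 1621 several and 12146 none. The probe set of highest mean was kept per symbol, giving 19938 genes; positions are RefSeq GRCm38. Array medians over all probe sets were 5.8 to 6.0, and no array was left out. The number of arrays limits the precision.

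The tests used limma 3.58.1 (lmFit and eBayes on group means, R 4.3.3) and were two-sided, with p adjusted by Benjamini-Hochberg across the 19938 genes and called under 0.05: the 31 C57bl6/J arrays in 1 model, the 8 backcross arrays in another, all 39 for the difference between effects. Folds are 2 to the power of the log2 difference. The members, lists and alternatives were chosen with earlier results of these data known, and 2 alternatives (array SD as a covariate, centring on array means) after the values were seen here. Members shown array by array are the largest called at day 9.5, up to 2 per role; for other comparisons, up to 5 called per direction; other members are named whatever their result. Histone genes were matched by their current symbols, and listed genes without a single-symbol probe set are not analysed here. Biological replicates are separate per the labels. The procedure was tested on simulated data. Python 3.11.15, pandas 2.3.3, numpy 2.4.6 and matplotlib 3.10.9 made tables and figures.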

Additional observations from a re-analysis of the deposited data

Results flagged for a closer look

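The effect of the transgene differed from the effect of day 9.5 in 32 of 44 replication genes by the test of the difference itself. The largest differences were -1.18 for Rrm2, -1.12 for Mcm3, -1.07 for Prim1, -1.05 for Mcm6 and -1.05 for Uhrf1. Day 9.5 was chosen with earlier results of these data known, so this largely restates the rise at that day.

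Probe sets outside the comparisons also moved at day 9.5. The second probe set of Pcna was at 7.7 to 7.9 on non-pregnant and at 8.6 to 8.9 on day 9.5 arrays, a difference of 0.95 beside 0.98 on the chosen one. The second probe set of Slbp went from 6.7 to 6.9 up to 7.3 to 7.4, a difference of 0.60 beside 0.50.

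In 17 groups of 4 arrays, 1 array was past Dixon's limit for an outlying value and stood apart from the other 3 by more than the rounding step of 0.1. Groups within that limit are not listed, even where 1 array stood further apart, as for Cdc6 in control littermates. High arrays were Cdc6 at day 15.5, replicate 3 (6.3, others 5.7 to 5.8), Mcm2 at day 9.5, replicate 4 (7.8, others 7.6), Mcm3 at day 12.5, replicate 1 (6.7, others 6.3), and Cdc45 and Chek1 at day 12.5, replicate 4 (6.6 against 6.4, and 6.2 against 6.0). Others were Rrm1 and Tyms at day 18.5, replicate 4 (7.8 against 7.5, and 6.1 against 5.9), Gins1 and Pcna post partum, replicates 1 and 4 (4.0 against 3.8, and 8.4 against 8.2), Rfc4 in non-pregnant replicate 3 (5.6 against 5.4) and Dscc1 in control replicate 4 (4.3 against 4.1). Low arrays were Mcm3 at day 6.5, replicate 4 (5.8 against 6.4), Gins3 in non-pregnant replicate 4 (5.6 against 5.9) and Rfc5 at day 15.5, replicate 3 (7.7 against 8.0). The others were Gins1 in control replicate 2 (3.6 against 3.8), and Pole2 and Chaf1a in Pdx1-creLate replicates 3 and 4 (3.8 against 4.1, and 5.8 against 6.0). In all, 45 of 396 groups were past Dixon's limit (11.4%), of which 28 had a gap of 1 rounding step. Chance gives about 1 in 20, and coarse values give more.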

How the results depend on the processing

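The counts at days 9.5, 12.5 and 18.5, of the F-test, of the step from day 12.5 to 15.5 and of the difference between transgene and day 9.5 stayed within 1.5 times the reported count under all settings tried. Their ranges were 23 to 36, 22 to 26, 4 to 8, 30 to 35, 0 and 24 to 32. Smaller counts moved more, and where no construction is named the cause was not tested. With the dimmest 25% of genes left out (40 members tested), the counts were 8 post partum, 4 from day 3.5 to 6.5 and 2 for the transgene. Quantile normalization gave 1 at day 3.5, 0 from day 3.5 to 6.5, 1 from day 9.5 to 12.5 and 1 from day 15.5 to 18.5. Centring on array medians gave 1, 8 and 1 from day 3.5 to 6.5, across birth and from day 15.5 to 18.5, and 0 for the transgene. Centring on means gave 1 from day 3.5 to 6.5. Array weights gave 3 at day 3.5, 9 post partum, 8 across birth, and 5, 7 and 6 in the steps from day 3.5, 9.5 and 15.5. A trended and robust variance gave 2 for the transgene. The acinar covariate gave 0 from day 3.5 to 6.5, 17 from day 6.5 to 9.5 and 2 for the transgene. The array SD as a covariate gave 0, 10, 0 and 0 in the steps from day 3.5, 6.5, 9.5 and 15.5, and 0 across birth. With the 2 compared groups alone, which have fewer arrays, the counts were 1 at day 6.5, 11 at day 15.5, and 0, 0 and 1 in the steps from day 3.5, 9.5 and 15.5. All 39 arrays in 1 model gave 6 for the transgene.

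Leaving out 1 array gave 0 to 3 at day 3.5, 2 to 6 at day 6.5, 31 to 34 at day 9.5, 20 to 25 at day 12.5, 10 to 16 at day 15.5, 4 to 7 at day 18.5 and 3 to 6 post partum. For the steps it gave 0 to 2, 17 to 26, 0 to 10, 0, 0 to 2, and 3 to 9 across birth. The F-test gave 29 to 35, the transgene 0 to 2 and the difference of effects 30 to 32. Same-numbered arrays correlated from -0.34 to 0.31 in their deviations. Arrays of different numbers were not correlated in this way, so these values cannot show whether same-numbered arrays share a batch. With the replicate block the counts were 34 at day 9.5, 25 at day 12.5, 25 from day 6.5 to 9.5, 1 from day 3.5 to 6.5 and 0 for the transgene. Among 71 results for named genes, 1452 values under other settings held 1317 with the same call, 134 no longer called and 1 reversed, Tk1 across birth at -0.04 with the array SD as a covariate. By mean level, Gins1 and Orc1 lay at percentiles 9.1 and 13.7 of all genes and were not called at day 9.5. Pole2, at percentile 14.9, was called. Whether low signal hid changes in dim genes was not tested.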
